A study of Mus musculus with 4 samples.

Results

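The 9 genes described here handle haem and iron in mouse tumours: Hmox1, Blvra, Blvrb, Slc48a1, Hebp1, Fth1, Ftl1, Slc40a1 and Tfrc. They were picked by symbol from 32285 genes per library, all 9 were found, and each symbol matched 1 Ensembl gene. The choice was made with their difference between treated and control cells already in view, so that difference is described below and carries no test. Single-cell RNA was measured in 4 tumour libraries: Nanocapsule 1 and 2 from nanocapsule-treated mice and Control 1 and 2 from control mice, n = 2 per group. All 4 are labelled as cancer cells of a tumour in C57Bl6 mice aged 6 to 8 weeks. The labels name no tumour line, capsule content, dose or time, and nothing says whether a library is 1 animal, so the spread between libraries may be technical.

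Haem freed from haemoglobin or from the cell's own proteins is opened by haem oxygenase, which releases iron, carbon monoxide and biliverdin. Biliverdin reductases turn biliverdin into bilirubin. The iron is stored in ferritin, a shell of heavy (Fth1) and light (Ftl1) chains, or leaves the cell through ferroportin (Slc40a1), while the transferrin receptor (Tfrc) brings iron in. Macrophages are the main haem recyclers of the body, and Hmox1 is also a widely used stress gene.

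Genes lie on GRCm38 (GENCODE release 21): Hmox1 at chr8:75093621-75100589 on the plus strand, Fth1 at chr19:9980598-9985098 on the plus strand and Ftl1 at chr7:45457944-45459884 on the minus strand. Slc40a1 lies at chr1:45908068-45926523 on the minus strand and Tfrc at chr16:32608920-32632794 on the plus strand. Iron regulatory proteins bind a stem-loop called the iron-responsive element when iron is scarce. In the 5′ UTR it blocks translation of ferritin and ferroportin, and in the 3′ UTR it steadies the Tfrc message. These elements are shown because they join the storage, export and uptake genes. They are known in just these genes, so the choice of genes fixed that they would be found. The search asked for C, 5 bases, CAGTG, a base other than G, and 5 bases pairing with the first 5, on the transcript strand only. It found the element in 4 of the 9 genes, and in 222 of 21901 genes with coding transcripts (1.01%). The capitals below mark the 6-base loop.
Fth1, 5′ UTR, exon 1, chr19:9982732-9982760, plus strand: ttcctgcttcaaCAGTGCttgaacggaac
Ftl1, 5′ UTR, exon 1, chr7:45459779-45459807, minus strand: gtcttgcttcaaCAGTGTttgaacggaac
Slc40a1, 5′ UTR, exon 1, chr1:45925465-45925493, minus strand: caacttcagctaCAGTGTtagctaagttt
Tfrc, 3′ UTR, exon 19, site 1, chr16:32631219-32631247, plus strand: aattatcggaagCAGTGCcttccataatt
Tfrc, 3′ UTR, exon 19, site 2, chr16:32631598-32631626, plus strand: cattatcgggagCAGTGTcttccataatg
Tfrc, 3′ UTR, exon 19, site 3, chr16:32631663-32631691, plus strand: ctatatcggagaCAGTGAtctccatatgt
Tfrc, 3′ UTR, exon 19, site 4, chr16:32631710-32631738, plus strand: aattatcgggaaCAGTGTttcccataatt

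The libraries held 98943390 to 140491491 UMIs (unique molecular identifiers, each 1 counted transcript molecule) and 1577 to 3837 cells. Cells were put in classes by the UMIs of marker genes, none of them among the 9. The tumour class held 1916 and 1240 cells in the nanocapsule libraries and 3489 and 1340 in the controls, with UMIs of all 12 melanocytic markers. These summed to 12168 and 12066 CPM (UMIs of a gene per 1000000 UMIs of the class) in the nanocapsule libraries and 12978 and 11994 CPM in the controls. The macrophage class, whose markers do not part macrophages from monocytes, held 86 and 112 nanocapsule cells and 131 and 149 control cells. T, B and dendritic cells numbered 10 to 69 per library. Pairs of libraries shared 1 to 13 cell barcodes. A further 163 and 87 nanocapsule cells and 80 and 133 control cells reached no class.

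In tumour cells Hmox1, the inducible haem oxygenase, stood higher in both treated libraries. It had 135 and 151 CPM in the nanocapsule libraries, against 60.4 and 63.2 CPM in the controls. The means were 143 ± 10.9 CPM in nanocapsule and 61.8 ± 1.97 CPM in control tumours (SD, n = 2 each), a ratio of 2.31. The fitted log2 fold of nanocapsule over control was 1.21 ± 0.07 (SE). Hmox1 was the 1 gene of 16192 tested in this class that edgeR called at an adjusted p under 0.05, so 0.00618% were called. Since the genes were chosen with this contrast known, nothing is read from that call.

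**Figure D1:**
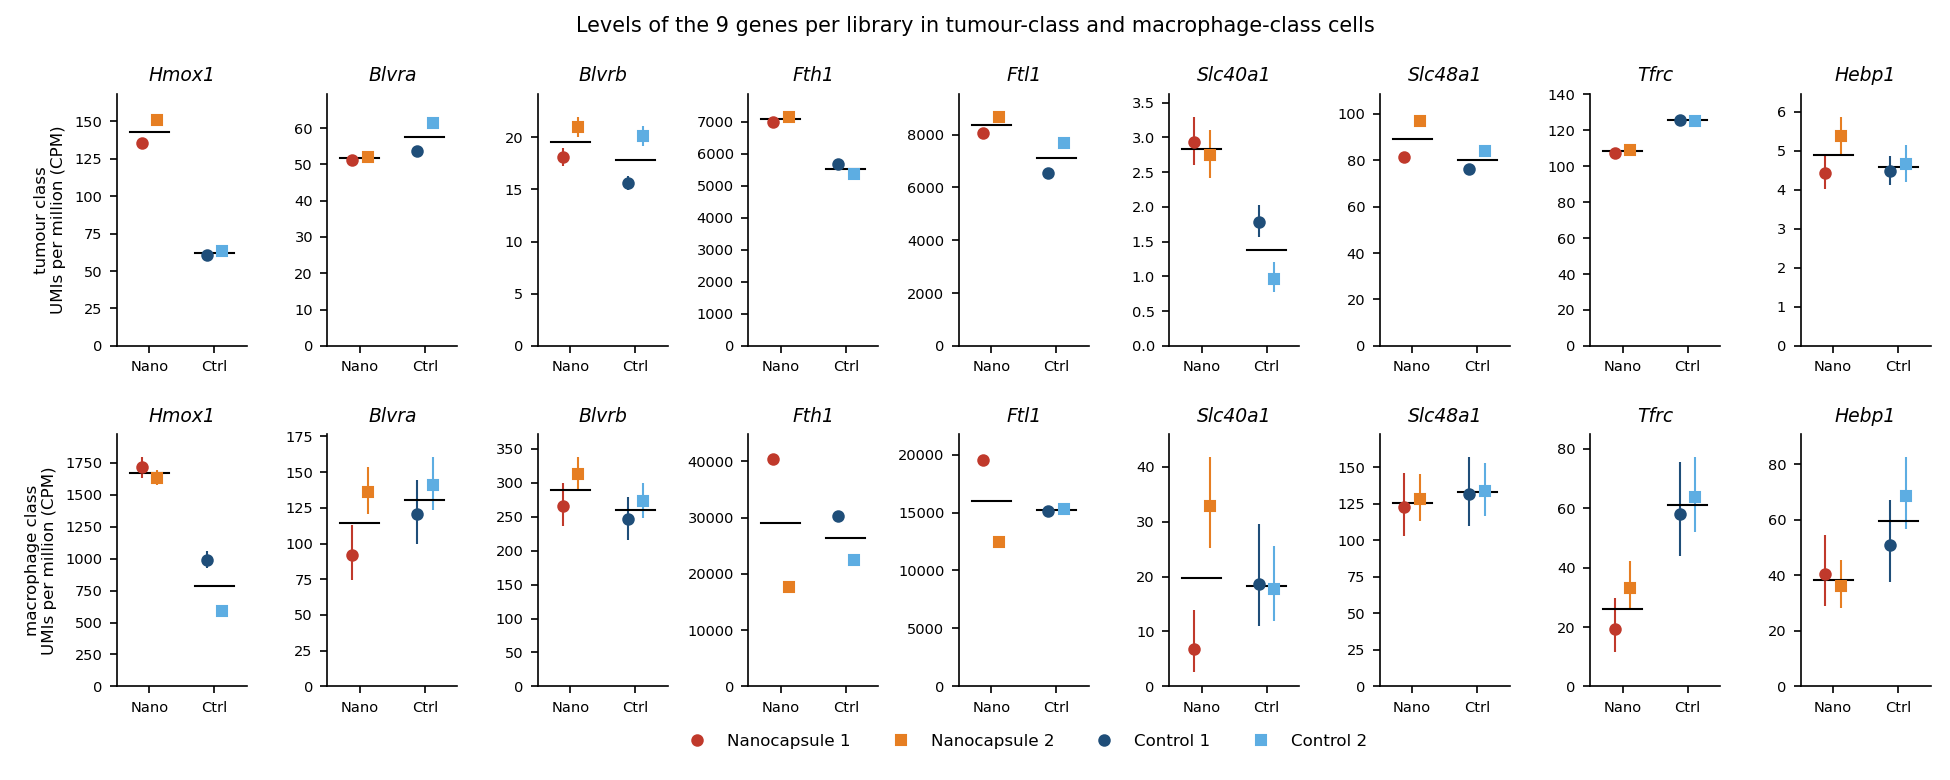
Levels of the 9 genes in CPM (linear axes from 0) for tumour-class cells (top row) and macrophage-class cells (bottom row), with nanocapsule libraries left and control libraries right in each panel. Points are libraries, vertical lines their 95% Poisson counting intervals and horizontal lines group means; Hmox1 is separated between the groups in both rows and Tfrc stands lower in the nanocapsule libraries of both rows, while Fth1 and Ftl1 are separated in tumour cells only.

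Macrophages carried the most Hmox1 per UMI of the 5 classes and showed a difference of like size. They had 1714 and 1635 CPM in the nanocapsule libraries, against 992 and 587 CPM in the controls. The 2 groups did not overlap, and the log2 fold was 1.19 ± 0.30 (SE). In this class 9.67% of the 8632 genes tested were higher in the nanocapsule pair without overlap, and 0 were called by edgeR (328 at an unadjusted p under 0.05, 4 called by DESeq2). One Nanocapsule 2 macrophage held 833 Hmox1 UMIs, 25.7% of that library's macrophage total. Without the cell richest in Hmox1 of each library, the levels were 1605 and 1249 CPM in nanocapsule and 857 and 531 CPM in control macrophages. The control libraries also differed from each other: the log2 fold was 1.70 without Control 1 and 0.81 without Control 2.

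Lymphocytes and dendritic cells had almost none. In T cells Hmox1 had 3 and 3 UMIs in the nanocapsule libraries and 0 and 1 in the controls, at most 9.75 CPM. B cells had 3 and 0 UMIs in nanocapsule and 0 and 0 in control libraries. Dendritic cells had 1 and 1 nanocapsule UMIs and 0 and 3 control UMIs. The T cell values did not overlap, at 9.75 and 4.48 CPM in nanocapsule and 0 and 2.92 CPM in control libraries, but all are at or under the 3 UMIs taken here as the floor. No difference is read from these 3 classes at such depth.

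**Figure D2:**
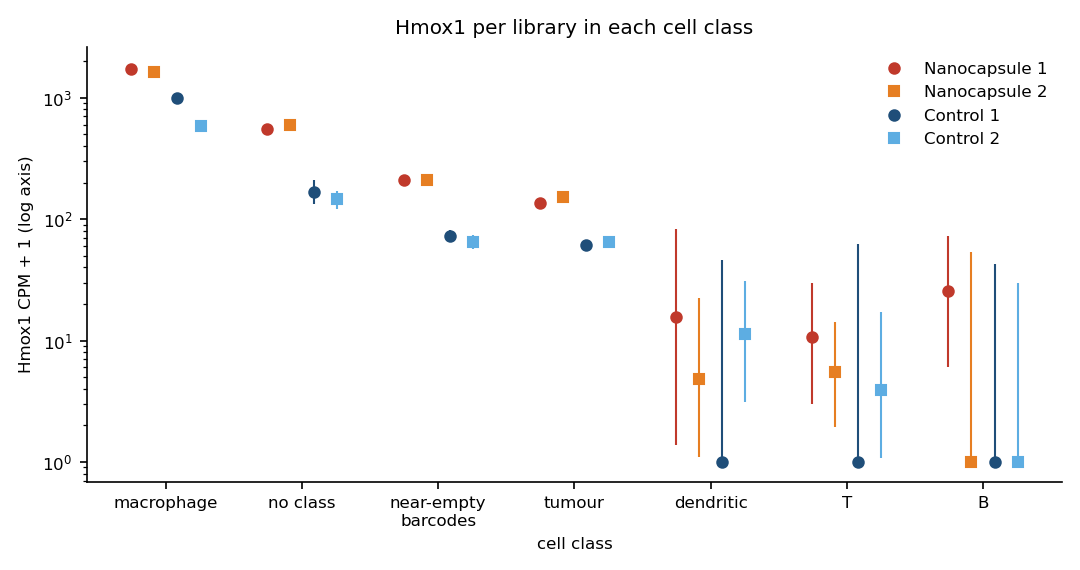
Hmox1 as CPM + 1 on a log axis in 5 cell classes, in cells of no class and in near-empty barcodes, nanocapsule libraries left of control libraries. Points are libraries with 95% Poisson counting intervals; macrophages lie highest, tumour cells lower, and dendritic, T and B cells rest on 0 to 3 UMIs.

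Tumour cells, being most numerous, still held most of the Hmox1 message. Their share of the cells' Hmox1 UMIs was 82.3% and 76.0% in the nanocapsule libraries, against 87.1% and 82.5% in the controls. Macrophages held 11.5% and 18.4% in nanocapsule and 10.7% and 14.8% in control libraries, although they were only 3.75% and 7.10% of nanocapsule cells and 3.41% and 8.10% of control cells.

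Free RNA and other cells were measured beside these levels. Near-empty barcodes (100 UMIs or fewer) had 211 and 209 CPM of Hmox1 in the nanocapsule libraries, against 71.5 and 63.8 CPM in the controls, so they differed in the same direction as the cells. T and B cells of the same libraries stood at 24.5 CPM or lower. Near-empty barcodes also had more Fth1, at 6488 and 5508 CPM in nanocapsule against 4608 and 4425 CPM in control libraries, and less Tfrc, at 85.0 and 92.2 against 114 and 136 CPM. The part of free RNA in the tumour values was not tested. The 17 macrophage and monocyte markers summed to 14.6 and 11.8 CPM in nanocapsule and 14.5 and 11.4 CPM in control tumour cells, with 15 to 17 of the 17 detected. The markers at 0 were Ly6c2 and Ccr2 in Nanocapsule 1, Adgre1 in Nanocapsule 2 and Ly6c2 in Control 2. Tumour cells with no UMI of a macrophage marker had 141 and 155 CPM of Hmox1 in nanocapsule libraries, against 60.4 and 63.1 CPM in controls. In the tumour class red cell messages did not follow the groups: the 6 erythroid markers summed to 20.8 and 1.90 CPM in nanocapsule and 2.91 and 3.13 CPM in controls. In cells of no class 2 globins did. Hbb-bs had 602 ± 621 CPM and Hba-a1 65.6 ± 26.8 CPM in nanocapsule libraries (mean, SD, n = 2), against 0 CPM in controls. The part of red cell messages in the Hmox1 levels was not tested. Tumour cells without globin UMIs had 138 and 159 CPM of Hmox1 in nanocapsule and 60.9 and 66.1 CPM in control libraries.

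Hmox1 was unevenly spread among tumour cells. Each tumour cell was thinned to 8000 UMIs, which left out 347 and 208 nanocapsule and 299 and 241 control cells as too shallow. A Hmox1 UMI was then found in 42.0% (95% Clopper-Pearson interval 39.5 to 44.5) and 45.5% (42.5 to 48.6) of nanocapsule cells. In the controls it was found in 31.8% (30.2 to 33.4) and 28.8% (26.1 to 31.5). Unthinned, the shares were 74.3% and 82.7% in nanocapsule and 67.3% and 70.2% in control libraries, at median depths of 53843 and 77480 against 36833 and 69373 UMIs. The upper end differed more than the share with any UMI. Cells with 5 or more Hmox1 UMIs made up 5.61% and 5.81% of thinned nanocapsule cells, against 0.690% and 1.73% of control cells. The tenth of cells richest in Hmox1 held 63.5% and 62.6% of its UMIs in nanocapsule libraries and 55.7% and 63.1% in controls, so the concentration overlapped between groups.

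At 1500 UMIs per cell, 68.6% and 46.4% of nanocapsule macrophages had a Hmox1 UMI, against 48.1% and 38.9% of control macrophages. These shares overlapped between the groups, although the CPM did not. At the same depth 1 of 47 and 0 of 61 nanocapsule T cells and 0 of 15 and 0 of 69 control T cells had one.

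Tumour-class cells and the cells of no class were clustered together, without the 9 genes and without 65 other haem and iron genes. This gave 17 clusters, called tumour clusters here. In 15 of the 17 the nanocapsule pair stood above the control pair in Hmox1 without overlap, and in 0 below it. The other 2, clusters 6 and 9, overlapped, and cluster 6 was the interferon state, led by Iigp1, Gbp2 and Igtp. It had 80.0 and 67.4 CPM in nanocapsule against 42.4 and 69.5 CPM in control libraries, from 33 and 131 cells against 8 and 9. With each cluster given the same weight, the mean was 181 and 178 CPM in nanocapsule and 71.9 and 78.2 CPM in control libraries, again with no overlap.

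The amino-acid stress and hypoxic states carried the most Hmox1 of the named states in every library. Cluster 17, named for amino-acid stress genes and led by Fgf21, Nupr1 and Atf5, had 440 and 663 CPM in nanocapsule and 230 and 219 CPM in control libraries. Cluster 5, the hypoxic state led by Pgf, Nppb and Ndrg1, had 246 and 316 CPM in nanocapsule and 134 and 129 CPM in control libraries. Cluster 5 held 30.1% and 25.1% of the clustered cells' Hmox1 UMIs in nanocapsule libraries on 17.2% and 12.4% of all their UMIs. In controls it held 27.5% and 9.44% on 12.5% and 4.68%. Cluster 17 held 8.42% and 14.9% of Hmox1 UMIs in nanocapsule and 8.59% and 15.8% in control libraries.

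The mitotic and S phase clusters had less Hmox1 than the amino-acid stress and hypoxic states in every library. In each of these dividing clusters the nanocapsule pair stood higher without overlap. The mitotic cluster 3 had 106 and 74.0 CPM of Hmox1 in nanocapsule and 31.8 and 44.7 CPM in control libraries, and the S phase cluster 4 had 92.6 and 74.2 against 38.8 and 42.6 CPM. The other S phase cluster, 15, had 88.5 and 164 CPM in nanocapsule and 33.6 and 37.6 CPM in control libraries, and in Nanocapsule 2 it held 12.3% of Hmox1 UMIs on 11.7% of all UMIs. Cluster 10, high in mitotic and hypoxic markers alike and so unnamed, had 239 and 200 CPM in nanocapsule against 75.8 and 164 CPM in control libraries. Cluster 16, high in pigment markers but led by Neat1, Magi1 and Rad51b, had 111 and 80.5 CPM in nanocapsule and 59.7 and 25.5 CPM in control libraries. One unnamed cluster was high as well: cluster 7, shallow at a median of 3518 UMIs with 0.180% mitochondrial UMIs and led by Hbb-bs. It had 419 and 488 CPM in nanocapsule against 183 and 145 CPM in control libraries, and 286 of its 1008 cells were of no class. Over the 17 clusters, the amino-acid genes Asns, Sars, Nars and Pycr1 and the mitochondrial chaperone Hspa9 followed Hmox1 most closely, with Pearson r of 0.937, 0.898, 0.862, 0.861 and 0.902 among 8484 genes. The clusters share libraries and were drawn from such genes, so these are descriptions. Tfrc ran the other way, with r = -0.561.

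**Figure D3:**
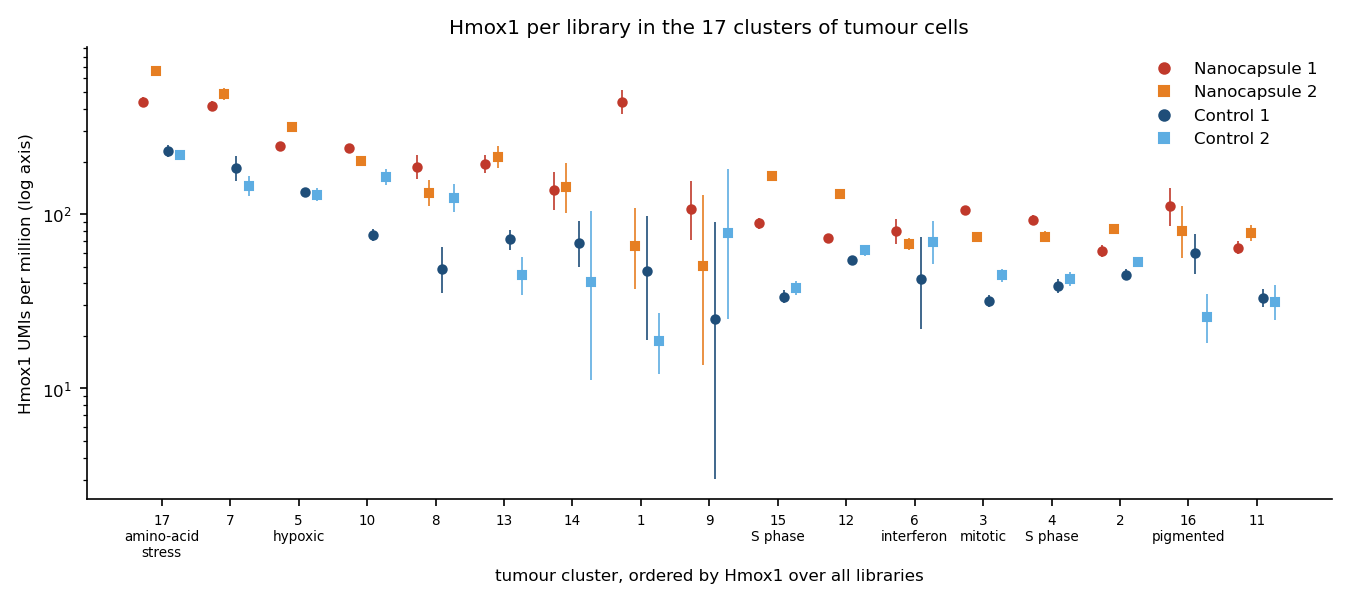
Hmox1 in CPM (log axis) in the 17 tumour clusters, ordered by the level over all libraries, with nanocapsule libraries left of control libraries. The clusters hold tumour-class cells and cells of no class. Points are libraries with 95% Poisson counting intervals; clusters 17 (amino-acid stress), 7 (unnamed) and 5 (hypoxic) lie highest and both nanocapsule points stand above both control points in 15 clusters.

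Hmox1 in macrophages was read by C1q, a complement gene of mature tissue macrophages, and Arg1, an arginase of activated macrophages, counting a cell as positive from 1 UMI, which deeper cells reach more easily. Macrophages with UMIs of both had 1931 and 1978 CPM in nanocapsule against 1289 and 1391 CPM in control libraries. Those with C1q and no Arg1 had 2213 and 1582 CPM in nanocapsule and 913 and 397 CPM in controls. Those with neither were lowest, at 964 and 504 CPM in nanocapsule and 474 and 138 CPM in controls. The groups did not overlap in these 3 sets, and the set with Arg1 alone did overlap, at 1272 and 3843 CPM against 1963 and 1980 CPM, from 11 to 15 cells per library. Arg1 itself stood at 1296 and 956 CPM in nanocapsule and 348 and 278 CPM in control macrophages. Nanocapsule macrophages were also deeper, at medians of 11368 and 13576 against 5777 and 10022 UMIs per cell. Whether cells held more Arg1 each or more cells held it was not tested, nor was its part in the Hmox1 difference. By cluster the difference was less regular. Of the 10 macrophage clusters with cells in every library, Hmox1 was higher in nanocapsule without overlap in 3 and overlapped in 7, and of the 3 with at least 5 cells per library it was higher in 2. The order of the clusters varied between libraries. Cluster 3 (Bhlhe41, Adm, Mmp12) had 2845 and 1690 CPM in nanocapsule and 2916 and 1809 CPM in control libraries, from 17 and 2 against 11 and 17 cells. Cluster 8 (Mgl2, Ifitm1, Klrd1) had 115 and 49.9 CPM in nanocapsule and 190 and 95.1 CPM in control libraries, from 4 and 10 against 6 and 9 cells. The class may also hold monocytes and other cells. Cluster 10 had Gzma, Gzmb and Nkg7, genes of cytotoxic lymphocytes, among its leading genes, beside 2430 CPM of C1qa. Cluster 8 had Klrd1, Cd7 and H2-Oa among its own. Over all libraries, cluster 4 (Adgre4, Ace, Hp) had 3.35 CPM of C1qa and 288 CPM of Hmox1. Cluster 9, with 2064 CPM of the monocyte marker Ly6c2, had 367 CPM of Hmox1. The share of monocytes or other cells in the 4 sets was not tested.

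**Figure D4:**
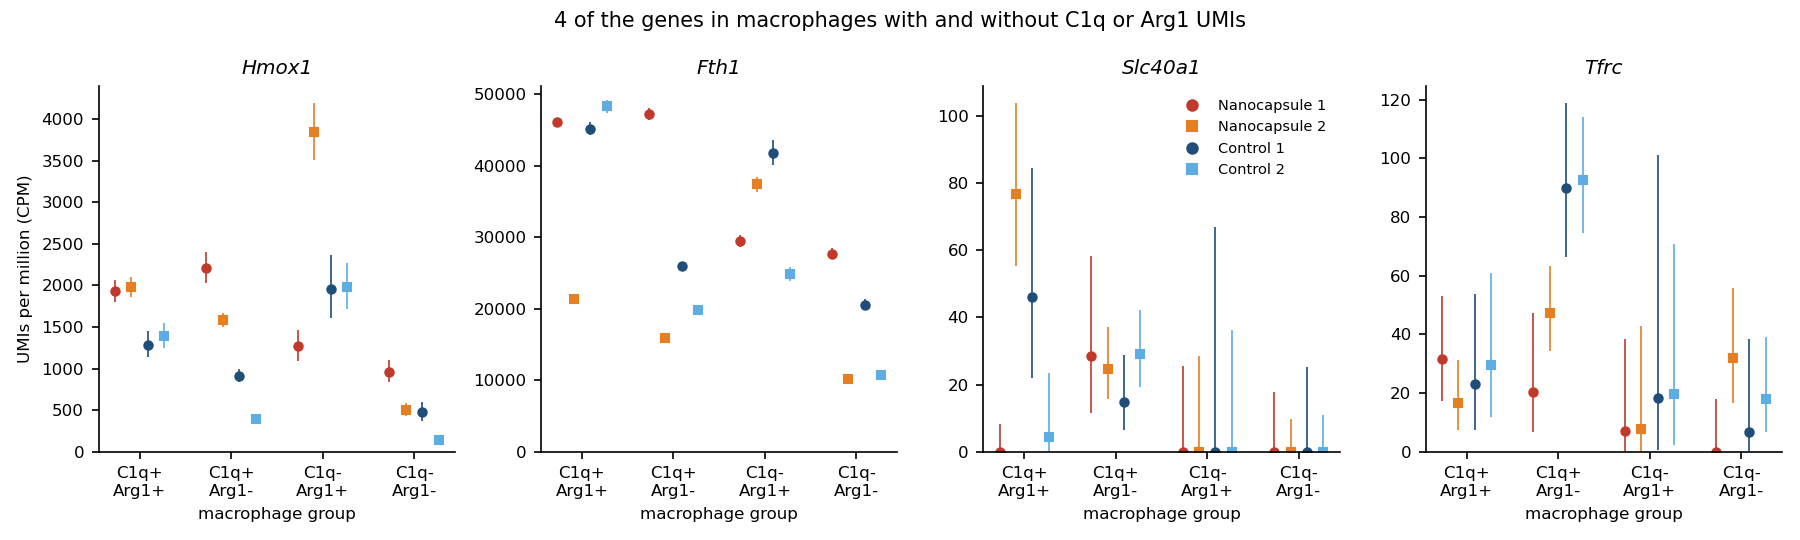
Hmox1, Fth1, Slc40a1 and Tfrc in CPM (linear axes from 0) in macrophages split by any C1q and any Arg1 UMI, nanocapsule libraries left of control libraries. Points are libraries with 95% Poisson counting intervals; Hmox1 is lowest where both are absent, Slc40a1 was counted only where C1q was, and Tfrc is highest in control macrophages with C1q and no Arg1.

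The enzymes that follow haem oxygenase did not share its pattern. Blvra, biliverdin reductase A, had 51.2 and 52.0 CPM in nanocapsule and 53.5 and 61.5 CPM in control tumour cells, without overlap, a log2 fold of -0.15 ± 0.07 (SE). Blvrb, biliverdin reductase B, had 18.1 and 21.0 CPM in nanocapsule and 15.6 and 20.1 CPM in control tumour cells and overlapped. Both overlapped in macrophages: Blvra had 92.2 and 136 CPM against 120 and 141 CPM, and Blvrb 266 and 312 CPM against 246 and 273 CPM. Hmox2, the constitutive haem oxygenase, had 48.2 and 47.9 CPM in nanocapsule and 52.3 and 51.9 CPM in control tumour cells (adjusted p = 0.766, edgeR).

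Slc48a1, which carries haem out of lysosomes, had 81.2 and 96.8 CPM in nanocapsule and 76.3 and 83.9 CPM in control tumour cells, with overlap. In macrophages it had 123 and 129 CPM in nanocapsule against 132 and 134 CPM in control libraries, without overlap, but its scaled log2 fold was 0.04 ± 0.20 (SE) and its sign differed between settings. Hebp1, a haem-binding protein, had 4.43 and 5.38 CPM in nanocapsule and 4.50 and 4.66 CPM in control tumour cells. In macrophages it stood lower without overlap, at 40.4 and 36.3 CPM in nanocapsule against 50.9 and 68.7 CPM in control libraries. Its log2 fold there was -0.54 ± 0.25 (SE), and 22.3% of all genes tested in that class were lower without overlap. Neither Slc48a1 nor Hebp1 was called by edgeR, which called 1 of 16192 genes in tumour cells and 0 of 8632 in macrophages. Nothing is read from their not being called.

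Both ferritin chains stood somewhat higher in treated tumour cells. Fth1 had 7007 and 7148 CPM in nanocapsule, against 5690 and 5364 CPM in control tumour cells, a log2 fold of 0.36 ± 0.12 (SE). Ftl1 had 8072 and 8668 CPM in nanocapsule, against 6552 and 7672 CPM in control tumour cells, a log2 fold of 0.24 ± 0.12 (SE). Fth1 stood higher without overlap in 13 of the 17 tumour clusters and Ftl1 in 11, and neither stood lower in any. Counts of clusters were not made for all genes, here or for Hmox1 and Tfrc, and the clusters share the 4 libraries, so they have no background. In the summed tumour class 18.8% of all genes tested were higher in the nanocapsule pair without overlap and 16.7% lower. Of the 9 genes, 4 were higher in those sums (Hmox1, Fth1, Ftl1, Slc40a1) and 2 lower (Blvra, Tfrc). By cluster Fth1 was highest in cluster 11, at 10167 and 11905 CPM in nanocapsule and 8226 and 8169 CPM in control libraries. It was lowest in cluster 16, at 1662 and 547 CPM in nanocapsule and 1191 and 883 CPM in control libraries.

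In macrophages the 2 nanocapsule libraries lay on opposite sides of the controls. Fth1 had 40386 and 17719 CPM in nanocapsule, against 30362 and 22391 CPM in control macrophages. Ftl1 had 19512 and 12455 CPM in nanocapsule, against 15114 and 15273 CPM in controls. The log2 fold of Fth1 was -0.54 without Nanocapsule 1 and 0.77 without Nanocapsule 2, so 1 library decided its direction. Ftl1-ps1, an annotated copy of Ftl1, had 116 and 119 CPM in nanocapsule and 166 and 132 CPM in control tumour cells, so reads shared by the copies leave Ftl1 somewhat uncertain. In lymphocytes ferritin was not higher in the nanocapsule pair. Fth1 had 1501 and 1147 CPM in nanocapsule against 1485 and 1703 CPM in control T cells. In B cells it had 2941 and 2994 CPM against 3275 and 3033 CPM, lower without overlap, as were 17.5% of all genes tested in that class. Ftl1 was lower without overlap in T cells, at 828 and 703 CPM in nanocapsule against 957 and 895 CPM in control libraries, and overlapped in B cells. T cells were not fitted, so no such share of all genes is given for them. In the B cell fit 3 of the 9 genes could be tested and 0 of them were called, where 0.107% of 1868 genes were.

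Export and uptake were read from Slc40a1 and Tfrc. Slc40a1, ferroportin, was rare in tumour cells: it had 2.93 and 2.75 CPM in nanocapsule and 1.78 and 0.968 CPM in control libraries, from 82 to 277 UMIs. Its log2 fold was 1.02 ± 0.31 (SE) and was 1.60 without Control 1 and 0.63 without Control 2. In macrophages it overlapped, at 6.73 and 32.8 CPM against 18.7 and 17.8 CPM. All of its macrophage UMIs came from cells with C1q: in the 2 sets without C1q it had 0 UMIs in every library, where 3 UMIs would be 8.00 to 54.5 CPM. It had 0 UMIs in T, B and dendritic cells.

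Tfrc stood lower in the nanocapsule libraries of both main classes. In tumour cells it had 108 and 109 CPM in nanocapsule, against 126 and 125 CPM in controls, a log2 fold of -0.21 ± 0.07 (SE). In macrophages it had 19.2 and 33.3 CPM in nanocapsule, against 58.1 and 63.8 CPM in controls, a log2 fold of -1.07 ± 0.28 (SE), while 22.3% of all genes tested in this class stood lower without overlap. The gap in CPM was widest in macrophages with C1q and no Arg1, which had 20.3 and 47.2 CPM in nanocapsule against 89.9 and 92.8 CPM in control libraries. In macrophages with both it overlapped, at 31.6 and 16.5 CPM against 23.0 and 29.6 CPM, as it did in macrophages with neither, at 0 and 32.0 CPM against 6.87 and 17.99 CPM. Macrophages with Arg1 alone had 1 and 1 Tfrc UMIs in nanocapsule and 1 and 2 in control libraries, under the floor of 3. Cluster 5, which has Tfrc and Slc40a1 among its leading genes although neither entered the clustering, held 8.14% and 7.14% of nanocapsule but 22.9% and 26.8% of control macrophages. Within it Tfrc had 103 and 90.7 CPM in nanocapsule, from 7 and 8 cells, against 141 and 128 CPM in control libraries, from 30 and 40 cells. The part of this shift in the Tfrc difference of the class was not tested. In T cells Tfrc was higher without overlap, at 48.7 and 43.3 CPM in nanocapsule against 33.0 and 17.5 CPM in control libraries. These values rest on 15 and 29 against 2 and 6 UMIs. Control 1 lies under the floor of 3 and T cells were not fitted, so no difference is read there. Of the 17 tumour clusters, Tfrc was lower without overlap in 9 and higher in 0. It was highest in cluster 16, at 452 and 299 CPM in nanocapsule and 524 and 373 CPM in control libraries.

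**Figure D5:**
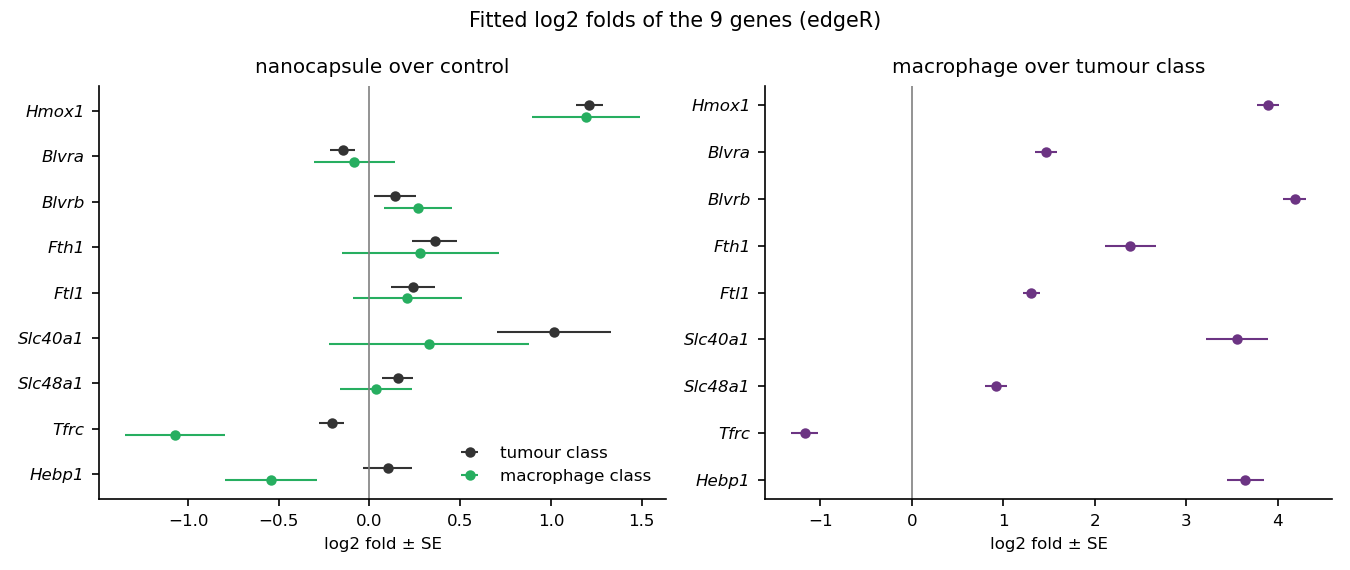
Fitted log2 folds with SE for the 9 genes, left for nanocapsule over control in the tumour and macrophage class, right for macrophage over tumour class within libraries. Hmox1 lies at 1.21 and 1.19 and Tfrc at -0.21 and -1.07 on the left; on the right 8 genes lie above 0 and Tfrc below.

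The nanocapsule effect in macrophages minus that in tumour cells is made of the values by which the genes were chosen, so it too is a description. The interaction fit in edgeR called 0 of the 9, where 0.466% of 16093 genes were (0.0808% higher and 0.385% lower), and 1 of the 9, Tfrc, had an unadjusted p under 0.05. DESeq2 called 0 of the 9 as well, and nothing is read from these counts. For Hmox1 the difference of the effects was 0.04 ± 0.18 (SE, log2), and for Tfrc it was -0.86 ± 0.29 (SE). For Fth1 it was -0.21 ± 0.67 (SE). The Fth1 difference was -0.85 without Nanocapsule 1 and 0.43 without Nanocapsule 2, so 1 library decided its sign.

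Within libraries, macrophages and tumour cells differed in all 9 genes, a contrast that the treatment did not enter. The fit with library as a block called 8 genes higher in macrophages and Tfrc lower, where 61.6% of all genes were called, 26.3% higher and 35.2% lower. The log2 folds of macrophage over tumour were 3.89 ± 0.12 for Hmox1 (adjusted p = 1.95e-60), 4.18 ± 0.13 for Blvrb, 3.64 ± 0.20 for Hebp1 and 3.55 ± 0.34 for Slc40a1 (SE). They were smaller for Fth1 at 2.39 ± 0.28 (adjusted p = 0.00424), Blvra at 1.47 ± 0.12, Ftl1 at 1.30 ± 0.09 and Slc48a1 at 0.92 ± 0.12. Tfrc lay at -1.17 ± 0.15 (adjusted p = 3.33e-10). The median of the 9 was 2.39, beside -0.31 over all genes tested. Of the 9, 9 were called under each of the other settings tried.

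Among 65 further genes of haem and iron, in 8 lists, 53 could be tested in tumour cells, with 27 above and 26 below 0. By edgeR 0 of the 53 were called and 9 had an unadjusted p under 0.05. Over all 16192 genes tested there, 1 was called and 1168 had an unadjusted p under 0.05. With so few calls over all genes, nothing is read from the 0. Of 8 haem synthesis genes 6 lay below 0, with a median log2 fold of -0.15 (0.00 over all genes). Alas1, which sets the pace of haem synthesis, had 23.8 and 23.9 CPM in nanocapsule and 34.1 and 31.5 CPM in control tumour cells. Of 10 target enzymes of NRF2, the factor that drives Hmox1 in oxidative stress, 8 lay above 0 with a median of 0.24. Gclm, a subunit of glutathione synthesis, had 383 and 282 CPM in nanocapsule against 299 and 261 CPM in controls, with overlap (edgeR adjusted p = 0.793). Prdx1 had a log2 fold of -0.12 ± 0.10 (SE), at 1431 and 1533 CPM in nanocapsule against 1487 and 1758 CPM in controls, also with overlap. Nfe2l2, which encodes NRF2, had 66.1 and 71.0 CPM against 58.3 and 61.0 CPM (adjusted p = 0.678). In macrophages 43 were tested and 0 called, with 21 above and 22 below 0, where 0 of all 8632 genes were called. Of the 8 NRF2 target enzymes tested there, 5 lay above and 3 below 0, with a median of 0.07 (0.01 over all genes). Nfe2l2 stood lower in nanocapsule macrophages, at 165 and 134 CPM against 190 and 182 CPM in controls (edgeR adjusted p = 0.997). Trf, the iron carrier transferrin, had 91.3 and 68.5 CPM in nanocapsule and 173 and 144 CPM in control macrophages (adjusted p = 0.997).

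Between the classes, 25 of the 58 list genes tested were called higher in macrophages and 19 lower. Among those higher were Slc11a1, an iron transporter of the phagosome, at 192 and 166 CPM in nanocapsule and 191 and 170 CPM in control macrophages, against 0.16 to 0.39 CPM in tumour cells. Lrp1, a receptor for haem bound to haemopexin, had 373 to 513 CPM in macrophages over the 4 libraries and 8.67 to 14.1 CPM in tumour cells (log2 fold 5.64 ± 0.14). Bach1, the haem-sensing repressor of Hmox1, and Ncoa4, which delivers ferritin for breakdown, were higher by 2.77 ± 0.14 and 2.32 ± 0.16 on the log2 scale. Among those lower in macrophages were Cisd1, an iron-sulphur protein of mitochondria, at -1.82 ± 0.13, and the haem synthesis enzyme Cpox, at -1.19 ± 0.21.

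Over the 20 sums of class and library, the genes whose log2 level ran most like that of Hmox1 were Lrp12, Gab1, Snx3, Hacd4 and Lhfpl2, with Pearson r of 0.929, 0.921, 0.920, 0.919 and 0.910. Of the other 8, Ftl1 ranked 9 of 9064 genes with r = 0.894, Fth1 ranked 46 with r = 0.843 and Hebp1 ranked 80 with r = 0.805. These points share libraries and classes, so the values describe the order of classes.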

How the data were processed

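Each library's deposited matrix holds raw UMI counts over all barcodes, beside its gene and barcode lists. Per the labels, libraries used 10x single cell 3-prime v2 chemistry; the submitters' processing notes give mm10 and Cell Ranger 2.1.1, while the matrix headers name Cell Ranger 4. Cells had at least 1500 UMIs and 200 genes and at most 20% mitochondrial UMIs. Classes needed 5 marker UMIs per 10000 (tumour 20) and 2 marker genes; these limits were set after seeing the data, and no doublet caller was run, cells with tumour and other markers being left out as mixed. Counts were summed per library and class, and tested by quasi-likelihood in edgeR 4.0.16 under R 4.3.3, after filterByExpr and TMM scaling, with Benjamini-Hochberg adjustment at 0.05, in classes with 20 cells per library; T and dendritic cells had fewer. Levels are plain CPM. Intervals (95%) cover counting error only. Clusters came from scanpy 1.11.5 (2000 variable genes, 30 components, 15 neighbours, Leiden resolution 1.0). A cluster name needed a median log2 fold of 1 over its markers, 3 of them at 5 CPM or more, and no second state at that fold. The fits were tested on simulated data. The genes and lists were chosen with earlier results of these data known; list genes are named by rule (up to 4 that passed, or the 2 most abundant), and Alas1 in tumour cells was named after its values were seen. Alternatives were DESeq2 1.42.0, RLE factors, no count filter, other cell and class rules, a replicate block and leaving out each library.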

Additional observations from a re-analysis of the deposited data

Results flagged for a closer look

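Srxn1, an NRF2 target enzyme that repairs peroxiredoxins, was the list gene called by the interaction fit. Its effect in macrophages minus that in tumour cells was -1.32 ± 0.35 (SE, log2, edgeR adjusted p = 0.0389). The lists were chosen with earlier results of these data known, and Srxn1 was not followed through the other settings, so this is a description. Srxn1 had 35.6 and 23.2 CPM in nanocapsule against 67.5 and 44.2 CPM in control macrophages. In tumour cells it had 14.5 and 19.1 CPM in nanocapsule against 10.2 and 14.0 CPM in control libraries. Hmox1 also stood higher in data outside the class comparisons. Near-empty barcodes had 211 and 209 CPM in the nanocapsule libraries, against 71.5 and 63.8 CPM in the controls. Cells of no class, with a median of 0.0499% to 0.214% mitochondrial UMIs per library, had 549 and 597 CPM in nanocapsule, against 167 and 144 CPM in control libraries. These cells also held Hbb-bs, a globin, at 1041 and 163 CPM in nanocapsule and 0 and 0 CPM in control libraries, and its part in their Hmox1 was not tested.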

How the results depend on the processing

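The Hmox1 fold in tumour cells ranged from 1.15 to 1.29 (log2) over all settings, the added one with cells of no class (1.26, chosen after seeing the data) included. In macrophages it was 0.81 to 1.70 when 1 library was left out and moved by less than the spread between libraries elsewhere. The number of genes called in tumour cells was 1; it was 9 with no count filter, 85 with DESeq2 and 22 to 116 with 1 library left out. In macrophages the count of 0 became 67 with no count filter, 4 with DESeq2, 1 under the order-of-magnitude cell rule and 0 to 44 with 1 library left out. In B cells 2 became 23 with no filter and 8 to 27 with 1 library left out; they could not be fitted under the order-of-magnitude rule, nor T and dendritic cells at all, for want of cells. For the difference between classes 75 became 24 with DESeq2 and 35 to 140 with 1 library left out; the number of the 9 genes called was 0 to 2, and the Fth1 difference, -0.21 in all 4 libraries, was -0.85 without Nanocapsule 1 and 0.43 without Nanocapsule 2. The cause was not tested. With the replicate block the counts were 292 in tumour cells, 32 in macrophages and 12 in B cells, and the Hmox1 folds 1.21 and 1.25. Same-numbered libraries deviated together at r = 0.607 in tumour cells, 0.236 in macrophages and 0.0816 in B cells, but the labels do not say that a number pairs libraries. With 2 libraries a group, 86 to 149 macrophages each and no stated animals, day or batch, treatment and library cannot be told apart beyond this spread.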
